A study of Mus musculus with 6 samples.

Results

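The genes described here are 10 members of the Notch signalling pathway. They comprise the ligand genes Dll1, Dll3 and Jag1, the receptor genes Notch1, Notch2 and Notch3, the target genes Hes1, Hes5 and Hey1, and Hes6. They were taken by symbol from a table of 39179 Ensembl genes, and all 10 were found and passed the filter on low counts, with 81 to 7995 counts per library. The cells were neural progenitor cells of CD1 mice, taken from the cerebral cortex of embryos at day E13.5 and differentiated in culture. G392E-NS cells (3 libraries) are labelled as stably expressing the G392E variant of neuroserpin (NS), a protease inhibitor secreted by neurons, and the variant forms polymers in the endoplasmic reticulum and causes the dementia FENIB. GFP cells (3 libraries) are labelled as stably expressing green fluorescent protein in its place. Which promoter drives either gene is not stated in the labels. The comparison asks how the transcripts of differentiated progenitor cells differ between these stable expressers, and here how their Notch genes do.

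The 6 libraries held 15507487 to 24835835 counts. Serpini1, the mouse neuroserpin gene, had 5.45, 6.74 and 4.96 CPM (counts scaled by library size with TMM factors) in G392E-NS libraries, against 4.20, 5.17 and 4.71 CPM in GFP libraries. The groups overlapped, and by edgeR the log2 fold change was 0.29 ± 0.19 (SE) at an adjusted p = 0.419. The counts of this gene thus do not show the overexpression that the labels state. The species of the introduced sequence is not among the labels, so whether its reads would be counted in Serpini1 is not known, and the groups are named below as the labels name them. The labels do not say whether replicates were separate cultures or how many founding cultures each group had, so the p-values cover the variation among these libraries alone, and part or all of it may be technical. Xist, the RNA that silences an X chromosome in female cells, had 1494 ± 345 CPM in G392E-NS and 1.51 ± 0.0831 CPM in GFP libraries (mean ± SD, n = 3 each). Xist, and by this marker the sex makeup of the cells, differed between the groups along with the introduced gene. These cannot be told apart in any difference between the groups given below. G392E-NS replicate 2 lay farther from the other G392E-NS libraries than these lay from each other in Dll1, Dll3, Hes1, Hes5 and Hey1, and results that rest on it are given with and without it. Endothelial, mural and microglial markers were near 0, with summed levels of 0.587 to 1.4, 2.95 to 6.74 and 0.0416 to 0.326 CPM in G392E-NS libraries and of 1.28 to 1.38, 1.67 to 2.51 and 0.128 to 0.351 CPM in GFP libraries.

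A Notch receptor is cut when it binds a Delta or Jagged ligand on a neighbouring cell. Its freed inner part enters the nucleus, joins the DNA-binding protein RBPJ and Mastermind proteins, and switches on Hes and Hey genes, whose products repress proneural genes. Proneural factors switch on Delta ligands, so that a cell on its way to becoming a neuron keeps its neighbours in the progenitor state, and in the developing cortex Notch activity also favours astrocyte formation.

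The promoters of Hes5 and Dll3 are shown because these genes passed the test when G392E-NS replicate 2 was left out. As given below, that library was left out because of these same genes, so the calls are no independent evidence. The part of the sequences in the levels of the genes was not tested. Each sequence is the 250 bases before the RefSeq start of the gene in GRCm38.p6, written on the strand of the gene. In Hes5 the capitals mark TGGGAA, the core of the motif bound by RBPJ, searched on both strands, so that TTCCCA is its form on the opposite strand. In Dll3 they mark CANNTG, the E-box bound by proneural and other basic helix-loop-helix factors, which reads the same on both strands.
Hes5, chr4:154960673-154960922, plus strand: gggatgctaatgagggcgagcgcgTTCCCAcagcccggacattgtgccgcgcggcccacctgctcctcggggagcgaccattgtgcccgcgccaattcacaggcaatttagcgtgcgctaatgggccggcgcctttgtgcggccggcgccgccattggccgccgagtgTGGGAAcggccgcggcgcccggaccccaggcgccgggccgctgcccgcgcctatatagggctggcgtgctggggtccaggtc
Dll3, chr7:28301786-28302035, minus strand: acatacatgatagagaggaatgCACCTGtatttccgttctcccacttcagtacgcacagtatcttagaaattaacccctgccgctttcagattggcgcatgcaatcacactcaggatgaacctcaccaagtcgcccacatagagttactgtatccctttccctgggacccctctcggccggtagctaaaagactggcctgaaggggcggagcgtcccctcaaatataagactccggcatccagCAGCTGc
The Hes5 window held TGGGAA 2 times, 226 and 82 bases before the start, in opposite orientations. Of 32851 such windows over all genes, 21.6% held this motif and 2.77% held it at least 2 times. Among the 10 windows that RefSeq gave for 8 of the 10 genes, TGGGAA was found in the Hes5 window alone. CANNTG was found 2 times in the Dll3 window, 228 and 7 bases before the start, and 66.2% of all windows held it and 31.8% held it at least 2 times. In Hes5, Dll1, Jag1 and Hes6 it was found as well, and no match was found in the windows of Notch1, Notch2 and Notch3.

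The levels of the 10 genes are compared as CPM per kilobase of the longest protein-coding transcript, averaged over all 6 libraries. Dll1 was highest at 74.1 ± 12.4, followed by Hes6 at 61.5 ± 19.2, Dll3 at 46.8 ± 16.7 and Notch1 at 37.6 ± 8.33 (mean ± SD, n = 6). Hes5 at 25.8 ± 8.79 and Hey1 at 23.4 ± 5.55 came next, then Notch2 at 13.2 ± 2.75 and Notch3 at 13.03 ± 2.24, and Hes1 at 6.13 ± 2.52 and Jag1 at 5.04 ± 0.571 were lowest. Dll1 was thus the most abundant of the 3 ligand transcripts and Jag1 the least. The ranges of neighbours in this order overlapped except between Hey1 and Notch2 and between Notch3 and Hes1. With lengths summed over all annotated exons, Notch3 came before Notch2 and Jag1 before Hes1, and no other place changed.

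No member passed the test between the groups with all 6 libraries. Of the 10 genes, 0 were called higher and 0 lower at an adjusted p under 0.05 by edgeR's quasi-likelihood test, where 6.15% of all 13775 genes tested were called (4.79% higher and 1.36% lower). At an unadjusted p under 0.05, 1 of the 10 was found (Dll3), against 22.4% of all genes tested. DESeq2, which called 8.96% of the genes it tested, and limma-voom, which called 5.01%, also called 0 members. The log2 fold changes of G392E-NS over GFP were above 0 for 5 genes and below 0 for 5, with a median of 0.03 beside −0.0047 over all genes tested, and in no member were the groups free of overlap, against 28.6% of all genes. In RNA from whole cultures, fewer cells of a type and less RNA per cell cannot be told apart.

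**Figure D1:**
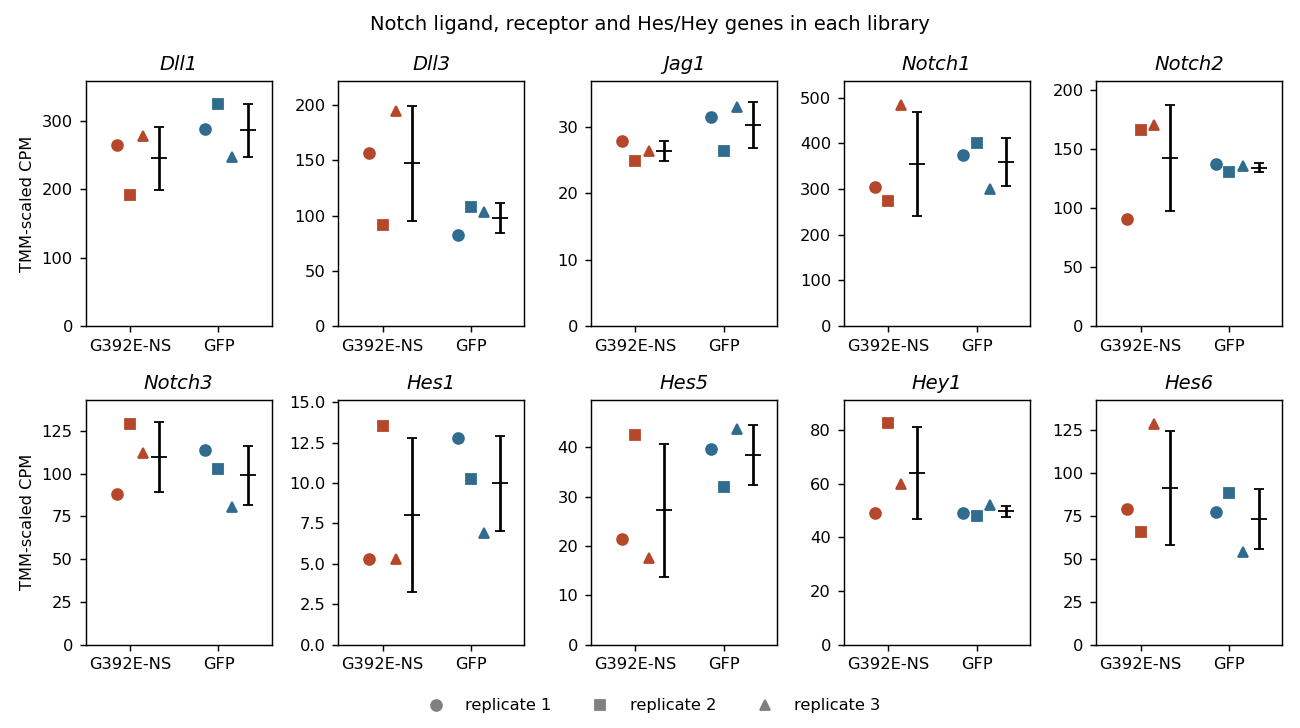
TMM-scaled CPM (vertical axis, from 0) of each gene in the 3 G392E-NS and 3 GFP libraries, with marker shape giving the replicate and the black bar the mean ± SD. In every panel the groups overlap, and G392E-NS replicate 2 (red square) lies apart from the other red points in Dll3, Hes1 and Hes5.

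Among the ligands, Dll3 was higher in most G392E-NS libraries and Dll1 and Jag1 had mean levels below those of GFP, none past the threshold. Dll3, an unusual ligand that acts mainly inside the cell that makes it (ENSMUSG00000003436, GRCm38 chromosome 7, 28293553 to 28302238), had 157, 91.4 and 194 CPM in G392E-NS replicates 1 to 3, against 82.1, 108 and 103 CPM in GFP replicates 1 to 3. G392E-NS replicates 1 and 3 lay above every GFP library and G392E-NS replicate 2 lay among them. The log2 fold change was 0.59 (SE 0.25, 95% interval 0.02 to 1.16, adjusted p = 0.208 by edgeR). Dll1, the Delta ligand that activates receptors on neighbouring cells (ENSMUSG00000014773, chromosome 17, 15367354 to 15376872), had 265, 192 and 278 CPM in G392E-NS libraries and 288, 324 and 246 CPM in GFP libraries. Its lowest value was again that of G392E-NS replicate 2, and its log2 fold change was −0.23 (SE 0.16, 95% interval −0.60 to 0.15, adjusted p = 0.451 by edgeR). Jag1, a Jagged-type ligand, had 27.9, 24.8 and 26.3 CPM in G392E-NS libraries and 31.5, 26.4 and 32.9 CPM in GFP libraries. Its log2 fold change was −0.20, with the smallest standard error of the 10 genes (SE 0.12, 95% interval −0.47 to 0.07, adjusted p = 0.351 by edgeR).

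The share of Dll3 among the ligand transcripts was higher in each G392E-NS library than in any GFP library. On the scale of CPM per kilobase, Dll3 made up 43.1%, 37.6% and 47.5% of the 3 ligand genes together in G392E-NS libraries, against 26.7%, 30.3% and 34.5% in GFP libraries. G392E-NS replicate 2 lay on the side of its own group, which its Dll3 level did not. The share is a description with no test, and groups free of overlap were found in the levels of 28.6% of all genes. In counts, the ratio of Dll3 to Dll1 was 0.592, 0.476 and 0.700 in G392E-NS libraries and 0.285, 0.334 and 0.418 in GFP libraries. This ratio was chosen after its values were seen and is given with no test. Another ligand ratio, Dll1 over Jag1, differed by −0.04 on the log2 scale. The ratio of Dll3 to Jag1 was not higher in every G392E-NS library. It was lower in G392E-NS replicate 2 (2155 and 585 counts) than in GFP replicate 2 (2151 and 526 counts). A ratio within a library does not depend on how libraries are scaled, and shows unequal levels of the genes, not which of them changed.

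The receptor genes had close means in both groups, with a wider spread among G392E-NS than among GFP libraries. Notch1 (ENSMUSG00000026923, chromosome 2, 26457903 to 26516663), the main receptor of cortical progenitors, had 305, 275 and 484 CPM in G392E-NS libraries and 374, 401 and 299 CPM in GFP libraries. G392E-NS replicate 3 was the highest and G392E-NS replicate 2 the lowest of all 6, and the log2 fold change was −0.02 (SE 0.22, 95% interval −0.52 to 0.49, adjusted p = 0.976 by edgeR). Notch2 had 90.3, 166 and 171 CPM in G392E-NS libraries, against 137, 130.4 and 135 CPM in GFP libraries. G392E-NS replicate 1 was low and the GFP libraries lay within a narrow range, with a log2 fold change of 0.08 (SE 0.22, 95% interval −0.41 to 0.58, adjusted p = 0.858 by edgeR). Notch3 had 88.2, 129 and 112 CPM in G392E-NS libraries and 114, 103 and 80.3 CPM in GFP libraries, and its log2 fold change was 0.15 (SE 0.17, 95% interval −0.24 to 0.54, adjusted p = 0.647 by edgeR). Notch1 made up the largest share of the 3 receptor genes per kilobase, 57.5% ± 8.59 in G392E-NS and 59.9% ± 2.44 in GFP libraries (SD, n = 3 each). Notch4, the remaining mouse receptor and known mainly from endothelium, had 0.791 ± 0.154 CPM in G392E-NS and 0.825 ± 0.333 CPM in GFP libraries.

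None of the target genes passed the test, and their fold changes lay on both sides of 0. Hes5, a repressor that answers Notch in neural progenitors (ENSMUSG00000048001, chromosome 4, 154960923 to 154962371), had 21.5, 42.6 and 17.5 CPM in G392E-NS libraries, against 39.6, 31.9 and 43.8 CPM in GFP libraries. G392E-NS replicates 1 and 3 lay below every GFP library and G392E-NS replicate 2 lay among them, the reverse of the pattern of Dll3. Its log2 fold change was −0.49 (SE 0.30, 95% interval −1.19 to 0.21, adjusted p = 0.379 by edgeR). Hes1, the other main Notch-driven repressor (ENSMUSG00000022528, chromosome 16, 30064384 to 30067796), had 5.28, 13.53 and 5.28 CPM in G392E-NS libraries and 12.8, 10.2 and 6.89 CPM in GFP libraries. G392E-NS replicate 2 was the highest of all 6 and the other G392E-NS libraries the lowest, with a log2 fold change of −0.30 (SE 0.40, 95% interval −1.21 to 0.61, adjusted p = 0.703 by edgeR). Hey1, a related repressor (ENSMUSG00000040289, chromosome 3, 8663359 to 8667256), had 49.1, 82.8 and 59.7 CPM in G392E-NS libraries, against 48.9, 48.0 and 51.9 CPM in GFP libraries. It was again highest in G392E-NS replicate 2, and its log2 fold change was 0.37 (SE 0.18, 95% interval −0.04 to 0.77, adjusted p = 0.268 by edgeR). Hes6, which binds Hes1 and blocks it and so favours neurogenesis (ENSMUSG00000067071, chromosome 1, 91411483 to 91414038), had 79.2, 65.7 and 128 CPM in G392E-NS libraries and 77.0, 88.3 and 54.0 CPM in GFP libraries, a log2 fold change of 0.32 (SE 0.26, 95% interval −0.29 to 0.92, adjusted p = 0.516 by edgeR).

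Within the targets, Hey1 took a larger share of the 3 genes per kilobase in each G392E-NS library. That share was 49.8%, 44.5% and 58.7% in G392E-NS libraries and 33.6%, 38.2% and 35.4% in GFP libraries. The share of Hes5 was 41.4%, 43.5% and 32.8% in G392E-NS libraries, against 51.9%, 48.3% and 56.8% in GFP libraries. The groups overlapped in neither share, as in the levels of 28.6% of all genes, but they did overlap in the levels of both genes. Both shares are parts of the same total, so they are not separate observations, and neither was tested. In counts, the ratio of Hey1 to Hes5, chosen after its values were seen and given with no test, was 2.29, 1.94 and 3.41 in G392E-NS libraries and 1.23, 1.51 and 1.19 in GFP libraries.

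**Figure D2:**
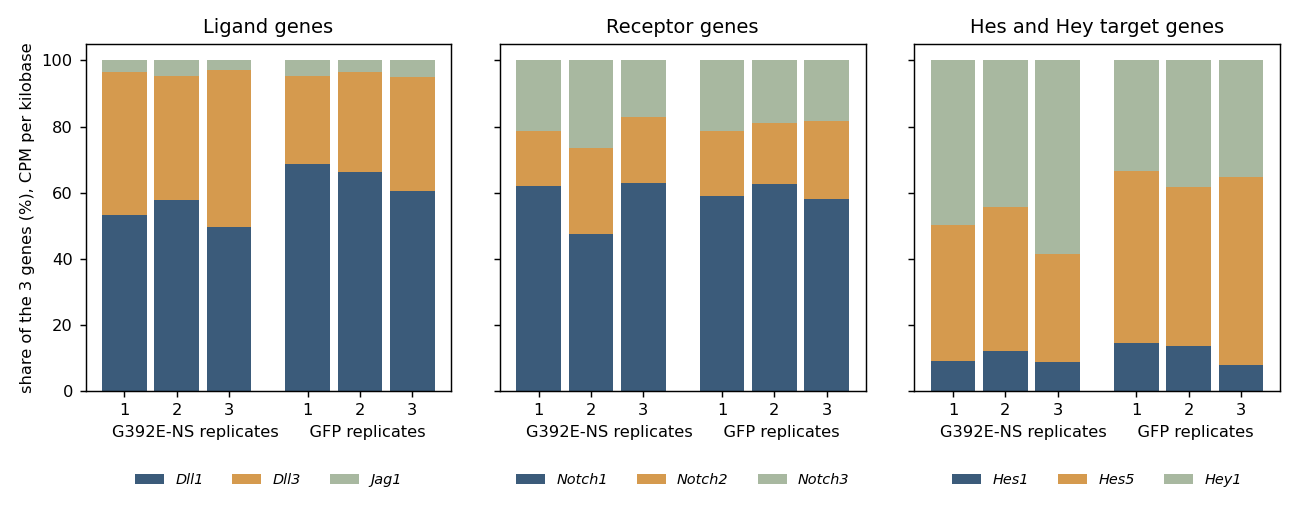
Share (%) of each gene in its class in each library, from CPM per kilobase of the longest protein-coding transcript, with G392E-NS replicates left of GFP replicates in each panel. Dll3 holds 37.6% to 47.5% of the ligand bar in G392E-NS libraries against 26.7% to 34.5% in GFP libraries, and Hey1 holds 44.5% to 58.7% of the target bar in G392E-NS libraries against 33.6% to 38.2% in GFP libraries.

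Of 4 ratios of counts within a class, none had an exact permutation p under 0.2, where the smallest possible is 0.1. Hey1 over Hes1 averaged 3.11 ± 0.453 in G392E-NS and 2.36 ± 0.503 in GFP libraries on the log2 scale (SD, n = 3 each; exact two-sided permutation p = 0.2, 0.8 adjusted over the 4 ratios). The difference for Hes5 over Hes1 was −0.18, for Dll1 over Jag1 as given above and for Notch3 over Notch1 0.20 on the log2 scale, with exact permutation p of 1, 1 and 0.8, and 1 in each case after adjustment. With 3 libraries a group the smallest p possible is 0.1, so the design could not reach 0.05. The test therefore cannot decide whether these ratios differ between the groups.

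G392E-NS replicate 2 lay at one end of its group in most of these genes. Among the G392E-NS libraries it was the highest in Notch3, Hes1, Hes5 and Hey1 and the lowest in Notch1, Dll1, Dll3, Jag1 and Hes6, so that it was at an extreme in 9 of 10 genes, against 63.1% of all genes tested. Hes1, Hes5 and Hey1 transcripts were thus high in the library where Delta ligand and Hes6 transcripts were low. Other targets, given below, did not all follow. Nrarp and Hey2 were also highest of the group in G392E-NS replicate 2, and Dtx1 and Hes3 were lowest. Summed astrocyte markers were 7974, 12894 and 8091 CPM in G392E-NS libraries, against 4937, 3478 and 4894 CPM in GFP libraries. Among G392E-NS libraries, Sox9 was highest in replicate 1, S100b in replicate 3 and the others in replicate 2. Summed oligodendrocyte-lineage markers were 4600, 2762 and 5051 CPM in G392E-NS libraries and 3374, 3901 and 3220 CPM in GFP libraries. Summed proneural genes were 127, 69.4 and 122 CPM in G392E-NS libraries and 128, 129 and 92.7 CPM in GFP libraries. The part of these lists in the result was not tested. Among the GFP libraries, replicate 3 was the lowest in Notch1, Notch3, Dll1, Hes1 and Hes6 and the highest in Jag1, Hes5 and Hey1. GFP replicate 3 was thus at an extreme in 8 of 10 genes, against 75.9% of all genes tested. GFP replicate 2 was at an extreme in 8 of 10 as well, against 60.9%, and the remaining libraries were in 4 to 6 of 10. The 6 markers of dividing cells summed to 49.4, 51.5 and 69.4 CPM in G392E-NS libraries and 74.1, 101 and 50.9 CPM in GFP libraries, and their part was not tested.

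**Figure D3:**
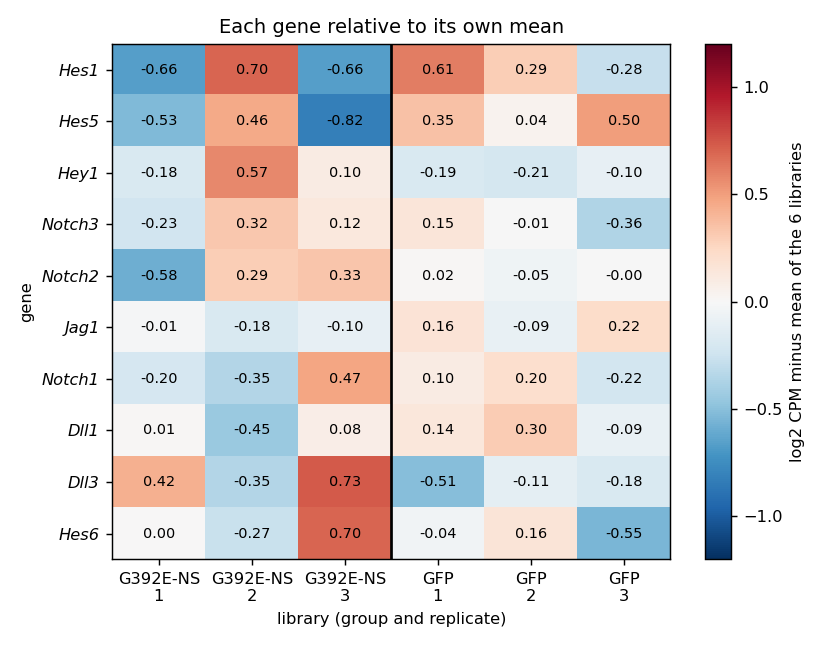
Colour and number give log2 CPM of each gene minus its mean over the 6 libraries, with G392E-NS libraries left of the black line and GFP libraries right of it. In G392E-NS replicate 2, Hes1, Hes5 and Hey1 lie at 0.70, 0.46 and 0.57 and Dll1, Dll3 and Hes6 at −0.45, −0.35 and −0.27.

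Without G392E-NS replicate 2, 2 of the 10 genes passed the test, where 3.69% of 13906 genes tested were called (3.08% higher and 0.611% lower). Dll3 was then 1.80-fold higher in G392E-NS libraries, with a log2 fold change of 0.85 (SE 0.15, 95% interval 0.50 to 1.2, adjusted p = 0.0258 by edgeR). Hes5 was 1.96-fold lower, with a log2 fold change of −0.97 (SE 0.17, 95% interval −1.36 to −0.57, adjusted p = 0.0261 by edgeR). Hes1 had a log2 fold change of −0.91 and did not pass (SE 0.28, 95% interval −1.56 to −0.25, adjusted p = 0.145 by edgeR). The interval of Hey1 covered 0 there, at −0.13 to 0.41 around 0.14, as did those of the other 6 genes. The library was left out because it lay apart in these same genes, so the calls without it describe the remaining 5 libraries and are no independent evidence. Leaving out any other library brought no member past the threshold, and Dll3 without G392E-NS replicate 3 had a log2 fold change of 0.34 (adjusted p = 0.421 by edgeR).

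**Figure D4:**
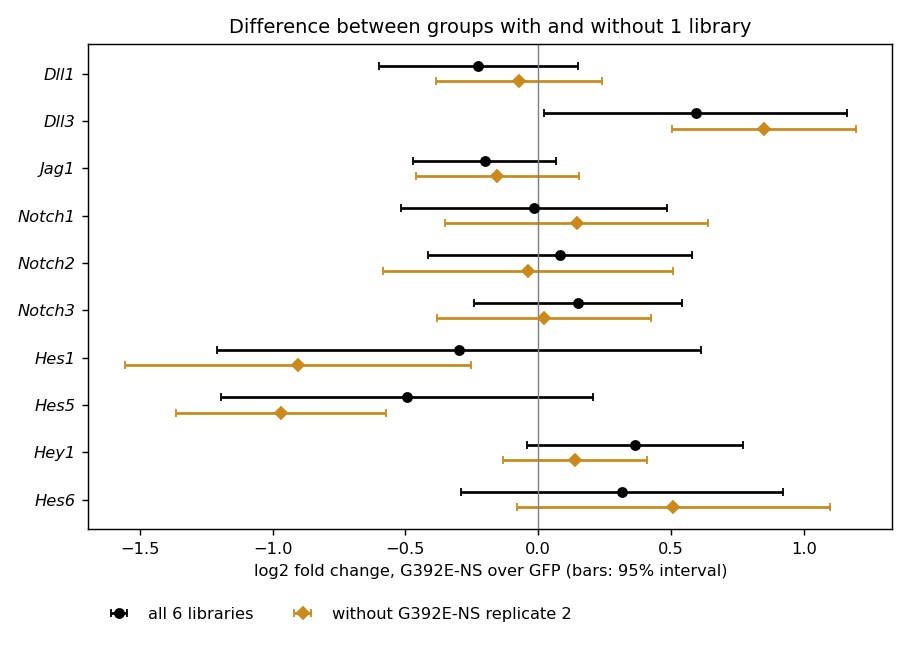
Log2 fold change of G392E-NS over GFP (horizontal axis) with its 95% interval for each gene, from all 6 libraries (black circles) and without G392E-NS replicate 2 (orange diamonds). The orange intervals of Dll3 (0.50 to 1.2), Hes5 (−1.36 to −0.57) and Hes1 (−1.56 to −0.25) exclude 0, and Dll3 is the only gene whose black interval does.

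Beyond these genes, 62 others of the pathway were listed by role, of which 58 passed the filter on low counts. Of the 58, 3 rose and 0 fell by edgeR, against 4.79% higher and 1.36% lower over all genes tested, and 14 had an unadjusted p under 0.05, beside 22.4% of all genes tested. Their median log2 fold change was −0.04, beside −0.0047 over all genes. DESeq2, which called 6.79% of genes higher and 2.18% lower, gave 4 higher and 1 lower, and limma-voom, with 3.79% higher and 1.22% lower over all genes, gave 2 higher and 0 lower. The 3 that rose, a count near the share over all genes, belong to the 14 genes of trafficking and turnover. Dtx1, a Deltex protein that binds the inner part of Notch receptors and is itself a Notch target (ENSMUSG00000029603, chromosome 5, 120680202 to 120711927), had 52.8, 50.3 and 56.2 CPM in G392E-NS libraries, against 24.8, 24.3 and 27.4 CPM in GFP libraries. The groups lay far apart, and Dtx1 rose 2.08-fold (log2 fold change 1.06, SE 0.10, adjusted p = 0.00105 by edgeR), a call it kept with each library left out (adjusted p = 0.00287 to 0.0141). In G392E-NS replicate 2, where Hes1, Hes5 and Hey1 were high, Dtx1 was the lowest of its group.

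Numbl, a relative of the Notch inhibitor Numb, had 24.99, 30.4 and 29.0 CPM in G392E-NS libraries and 20.0, 18.7 and 16.6 CPM in GFP libraries. Its increase was 0.61 in log2 fold change (SE 0.12, adjusted p = 0.0292 by edgeR). Dtx3l, a Deltex relative that works with the ADP-ribosyl transferase Parp9, was low, at 4.14 ± 1.12 CPM in G392E-NS and 1.73 ± 0.334 CPM in GFP libraries, and rose as well (log2 fold change 1.26, SE 0.28, adjusted p = 0.0389 by edgeR). It overlaps Parp9 on the opposite strand, and strand use in counting is not given, so reads of Parp9 may be included. Both lost their calls without GFP replicate 1, 2 or 3 or G392E-NS replicate 2 or 3, with adjusted p of 0.0643 to 0.117 for Numbl and 0.0858 to 0.154 for Dtx3l by edgeR, and Dtx3l lost its call by limma-voom (adjusted p = 0.0531). Psen2, a catalytic subunit of the gamma-secretase that cuts Notch, had the next smallest adjusted p (log2 fold change 0.57, SE 0.15, adjusted p = 0.0633 by edgeR). It passed without G392E-NS replicate 1 (0.0317) and by DESeq2 (0.0254). The number of these genes called higher was 4 without G392E-NS replicate 1, where 9.86% of all genes tested were called in either direction. With any other library left out 1 of them, Dtx1, was called higher, where 1.71% to 4.16% of all genes were called. Those called lower were Tle2, a Groucho-type corepressor, without GFP replicate 3, by DESeq2 and with no filter, and Rbpj, the DNA-binding partner of Notch, without G392E-NS replicate 1 (log2 fold change −0.35, adjusted p = 0.0466 by edgeR).

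**Figure D5:**
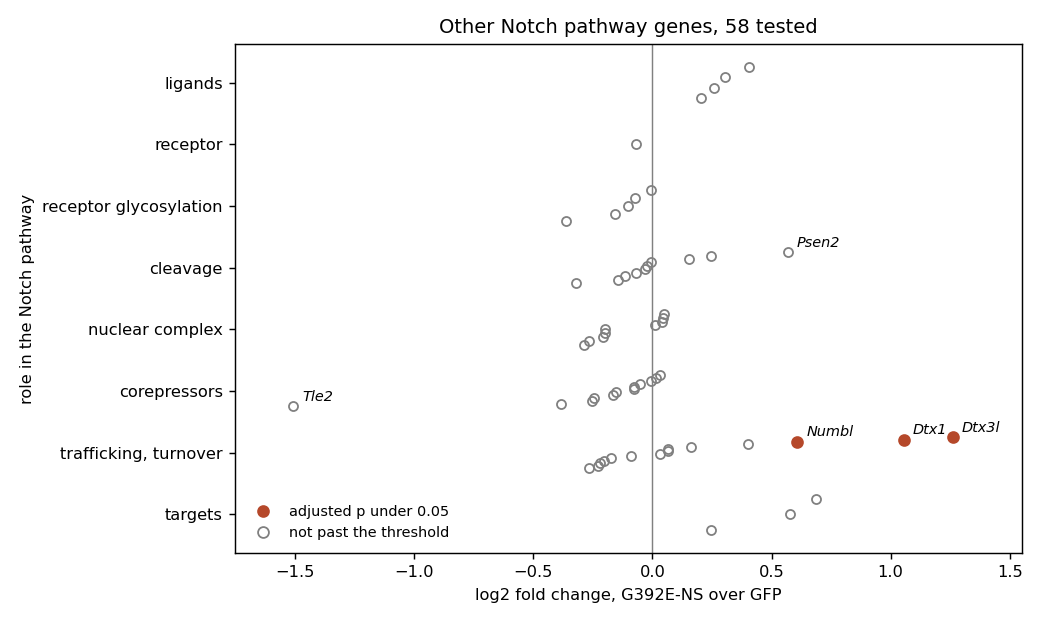
Log2 fold change of G392E-NS over GFP (horizontal axis) for 58 further Notch pathway genes by role (vertical axis), filled where the adjusted p was under 0.05. The 3 filled points, Dtx1, Numbl and Dtx3l, lie at 1.06, 0.61 and 1.26, all in trafficking and turnover.

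By role, the 4 further ligand genes tested (Dll4, Jag2, Dlk2 and Dner) had fold changes of 0.20 to 0.41 and the 5 glycosylation genes of −0.36 to −0.0040 on the log2 scale, none past the threshold. The gamma-secretase and protease genes had a median of −0.03 (10 genes), the nuclear activator complex of −0.20 (9 genes) and the corepressors of −0.12 (12 genes). Further genes listed as targets and tested were Nrarp, Hey2 and Hes3, with a median of 0.58 and none called. Of 9 genes outside the Hes and Hey family listed as linked to Notch, such as Fabp7, Ccnd1 and Myc, 0 were called higher and 0 lower by edgeR, DESeq2 or limma-voom, 0 had an unadjusted p under 0.05, and the median was 0.09.

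Of 9 proneural and neuronal bHLH genes, some of which Hes proteins repress, 3 passed the filter, and 1 fell and 0 rose by edgeR, as by DESeq2 and limma-voom. Neurod1, which drives neuronal differentiation, had 0.624, 0.806 and 0.456 CPM in G392E-NS libraries, against 3.40, 5.37 and 3.21 CPM in GFP libraries, and fell (log2 fold change −2.63, SE 0.32, adjusted p = 0.00398 by edgeR). Its exons overlap those of Cerkl, whose reads may be included. Neurog2 had a log2 fold change of 0.27 (adjusted p = 0.325 by edgeR). Neurog1, Neurog3 and Atoh1 had no counts in any library.

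Markers of neurons, progenitors and glia were read beside these genes, with 6.15% of all genes tested called. Astrocyte markers included 3 higher of 9 (Aldh1l1, Slc1a2 and Aldoc), and oligodendrocyte-lineage markers 2 higher of 8 (Pdgfra and Mog). Neuronal markers included 1 higher (Gap43) and 1 lower (Elavl4) of 9 tested, and progenitor markers 1 higher (Prom1) and 1 lower (Nes) of 8. With a library left out, Gap43 and Prom1 kept their calls. Nes lost its call with upper-quartile scaling (adjusted p = 0.0509) and with a minimum of 1 CPM in 3 libraries (0.0510), both by edgeR, and Aldh1l1 by limma-voom (0.0523). Nes and Elavl4 lost theirs without GFP replicate 1, 2 or 3 or G392E-NS replicate 2 or 3 (adjusted p = 0.0510 to 0.170 by edgeR), and Aldh1l1 without GFP replicate 1, 2 or 3 or G392E-NS replicate 3 (0.0594 to 0.126). Slc1a2 lost its call without GFP replicate 2 or 3 (0.0638 and 0.0517), Aldoc without GFP replicate 1 or 2 (0.0886 and 0.0550), and Pdgfra and Mog without GFP replicate 1, 2 or 3 or G392E-NS replicate 2 (0.0512 to 0.172). Summed neuronal markers were 3215 to 4444 CPM in G392E-NS and 3453 to 3984 CPM in GFP libraries, and summed progenitor markers were 3956 to 4951 CPM in G392E-NS and 4148 to 4774 CPM in GFP libraries. The part of these markers in the Notch results was not tested.

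The gene whose profile over the 6 libraries was most like that of Dll3, the member with the smallest adjusted p, was Otud7a, with a root mean square difference of 0.10 on the log2 scale after centring. Lsm2 and Trir followed at 0.14 and 0.15, out of 10501 genes with a mean of at least 5 CPM.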

How the data were processed

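RNA of 6 samples was sequenced, 3 of G392E-NS and 3 of GFP cells. The deposited table holds raw counts per Ensembl gene, per the labels and the values. Per the submitters' processing notes, which give no roles, the build was GRCm38 and the tools included HTSeq 0.6.1, TopHat2 2.0.12, DESeq2 1.4.5 and R 3.2.2. The strand setting is not given in the sources used here. Opposite-strand genes that share exons with Notch1, Notch3, Dll1 and Hes5 had at most 47 counts in a library.

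Groups and replicate numbers came from the labels. Of 39179 genes, 37693 were paired with a symbol, position and length by GENCODE M21 (GRCm38). The libraries held 15507487 to 24835835 counts, and no replicates were duplicates (chi-square per degree of freedom 8.02 to 56.4). edgeR 4.0.16 in R 4.3.3 tested 13775 genes after filterByExpr, with TMM scaling, a quasi-likelihood F test with no covariate, and Benjamini-Hochberg adjustment over all genes tested at 0.05. CPM are scaled by TMM. SE and 95% intervals were derived from the F statistic of each fold change. The fit was tested on simulated data.

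The members, lists and tests were chosen with earlier results of these data known. The text names all members, pathway genes that were called (or the 4 with the smallest adjusted p), called genes of the other lists, and the 3 genes closest in profile to the member with the smallest adjusted p. Other genes were chosen after their values were seen. Alternatives were RLE and upper-quartile scaling, DESeq2 1.42.0, limma-voom (limma 3.58.1), a block on replicate number, no filter, a minimum of 1 CPM in 3 libraries, and each library left out.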

Additional observations from a re-analysis of the deposited data

How the results depend on the processing

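Members called numbered 0 in each direction under RLE and upper-quartile scaling, DESeq2, limma-voom, both filters and the replicate block. With a library left out they numbered 0 to 1 higher and 0 to 1 lower, the 1 each being Dll3 and Hes5 without G392E-NS replicate 2. Over the left-out libraries the log2 fold change of Dll3 was 0.34 to 0.85 and of Hes5 −0.97 to −0.26. Those of Notch1 (−0.31 to 0.14), Notch2 (−0.068 to 0.31) and Hes6 (−0.012 to 0.51) changed sign, as did the log2 differences of Notch3 over Notch1 (−0.090 to 0.42), Dll1 over Jag1 (−0.20 to 0.15) and Hes5 over Hes1 (−0.35 to 0.17), none past a threshold; fewer samples were tested in each. Dll3, Hes5, Notch3, Dll1, Jag1, Hes1 and Hey1 kept their direction in all 13 alternatives.

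Over all genes, 847 calls became 1579 with no filter, 1457 by DESeq2, 267 with the replicate block, and 242 to 1373 with a library left out, and 69.6% to 83.4% of calls were higher in these settings. Pathway genes called were 1 higher with the replicate block, 1 lower by DESeq2 and with no filter, and 1 to 4 higher and 0 to 1 lower with a library left out. Deviations of same-numbered libraries correlated at 0.03, −0.38 and −0.25, and only GFP replicate 1 correlated best with its own number. The highest correlations were 0.35 (G392E-NS replicate 3 with GFP replicate 2) and 0.31 (G392E-NS replicate 2 with GFP replicate 3). The deviations were centred within each group of 3, so these values depend on each other. They cannot decide whether the replicate numbers pair the samples. With the block, Numbl and Dtx3l (adjusted p = 0.105 and 0.136) and the markers Nes, Elavl4, Aldh1l1, Slc1a2, Aldoc and Pdgfra (0.0665 to 0.121) lost their calls by edgeR. Precision was limited by 3 libraries a group: standard errors of the members were 0.12 to 0.40 on the log2 scale.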

Other observations

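A few other transcripts of the Notch loop are given as values, with no test, since they were chosen after their values were seen. Nrarp, a Notch target that feeds back on the receptor complex, had 32.0, 49.0 and 22.4 CPM in G392E-NS replicates 1 to 3, against 20.4, 17.1 and 26.9 CPM in GFP replicates 1 to 3. Hes3, another Hes gene, had 1.46, 1.27 and 1.37 CPM in G392E-NS libraries and 1.04, 0.903 and 0.813 CPM in GFP libraries. Lfng, a glycosyltransferase that alters how receptors answer their ligands, had 68.6, 53.0 and 94.2 CPM in G392E-NS libraries and 96.6, 89.0 and 46.0 CPM in GFP libraries. G392E-NS replicate 2 was thus the highest of its group in Nrarp and the lowest in Hes3 and Lfng, and GFP replicate 3 was the lowest of its group in Lfng.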
